A study of Homo sapiens with 66 samples.

Results

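Untreated F-36P cells (F36P in the sample labels), an acute myeloid leukemia (AML) cell line of the erythroid M6 class, were compared with the other untreated AML cell lines of the series. The members were chosen by their labels alone: 3 libraries of untreated F-36P against 30 untreated libraries of 10 other lines, out of 66 libraries in the whole series. The study cultured 11 AML cell lines, treated each with medium alone or with etoposide, a topoisomerase II poison, and sequenced polyadenylated RNA. Only the medium controls, 33 libraries, enter here.

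The other lines, with 3 libraries each, were KASUMI-1 of class M2, the promyelocytic NB-4 and HL-60 of M3, OCI-AML3 and OCI-AML2 of M4, and of the monocytic M5 class THP-1, MV-4-11, NOMO-1, MOLM-13 and MONO-MAC-6. All groups were human AML lines without any drug, grown after overnight seeding for a day in their own media. RNA of each library came from several pooled wells, and the series describes the 3 libraries of a line as biological replicates. By the study's methods F-36P was the only line kept with granulocyte-macrophage colony stimulating factor (GM-CSF) and the only M6 line, so the line, its class and its culture cannot be told apart in any difference given here. F-36P is a single line, so each line was treated as 1 value, and every p-value rests on F-36P varying as the other 10 lines do. An exact permutation test over 11 lines could not give a p below 0.0909.

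Red cell precursors are directed by a set of transcription factors around GATA1, TAL1 and KLF1, which act on globin, haem and membrane genes, mostly through a GATA sequence element in their promoters and enhancers. Erythropoietin acts on these cells through its receptor, JAK2 and STAT5, and keeps them alive in part through BCL-XL. Globin chains are exchanged during development: zeta and epsilon are embryonic, gamma is fetal, and beta and delta are adult. Alpha is used in both fetal and adult life.

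Libraries held between 18616941 and 20105328 reads assigned to genes in F-36P and between 18261596 and 21304265 in the other lines. Levels are given as CPM, reads of a gene scaled to a common library size of 1000000, with library sizes adjusted by the TMM method of edgeR. F-36P was tested against the 10 lines on the reads summed per line by the quasi-likelihood test of edgeR, with p-values adjusted after Benjamini and Hochberg, and a gene was called higher or lower at an adjusted p below 0.05 with a fold above 2. The fit of the genes read in all 11 lines held 11348 genes, and called 143 higher (1.26%) and 105 lower (0.925%). A wider fit, chosen after seeing that the first leaves out genes silent in most lines, held 21831 genes read in at least 1 line, and called 502 higher (2.3%) and 185 lower (0.847%). A gene that entered the wider fit only through F-36P had to differ, and this holds for 263 of its 502 higher genes, while 70 of its 185 lower genes entered through all 10 other lines and not through F-36P. Calls of such genes are given as a description. Without any test, all 3 F-36P libraries stood above all 30 others for 2165 of the 21831 genes (9.92%) and below them for 1227 (5.62%). The wider fit is used for genes that the first does not hold. RNA was taken from whole cultures, so more cells of a type and more RNA per cell cannot be told apart.

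The defining markers of the erythroid class were read in F-36P in every library. GATA1, KLF1, EPOR, HBG2, HBA1, HBA2 and ALAS2 lay at 104.6 CPM or more in each of the 3, and HBG1 and HBB were read at lower levels. Over 6 lists of erythroid genes, 102 genes in all, 96 reached a mean of 1 CPM in F-36P, against 62 in the median of the other lines. The wider fit held 100 of the 102 and called 30 higher and 0 lower, of which 16 entered it through F-36P only and 14 through another line as well. Over all genes of the wider fit, 2.3% were called higher and 0.847% lower. The fit of genes read in every line held 53 of the 102 and called 7 higher and 0 lower, beside 1.26% and 0.925%. At an unadjusted p below 0.05 and the same fold, 52 of the 100 were higher and 3 lower, and DESeq2 called 37 higher and 3 lower. A further tool, limma on log2(CPM + 1), called 45 higher and 0 lower. Of the 100 genes, 20 entered through F-36P only, so for these genes the counts of every tool are a description. Over all genes of the wider fit, DESeq2 called 644 of 19203 higher and 1199 lower, and limma 754 of 21831 higher and 285 lower. Against only the 5 lines outside the M5 class, which leaves 6 values in the test, the wider fit called 7 of these genes higher and the other fit 1. All 3 F-36P libraries stood above all 30 others for 62 of the 102 genes and below them for 4. These shares were 9.92% and 5.62% over all genes of the wider fit. The median difference between F-36P and the mean of the other lines was 2.32 in log2(CPM + 1) over the 102 genes, beside -0.05 over all genes of the wider fit.

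**Figure D1:**
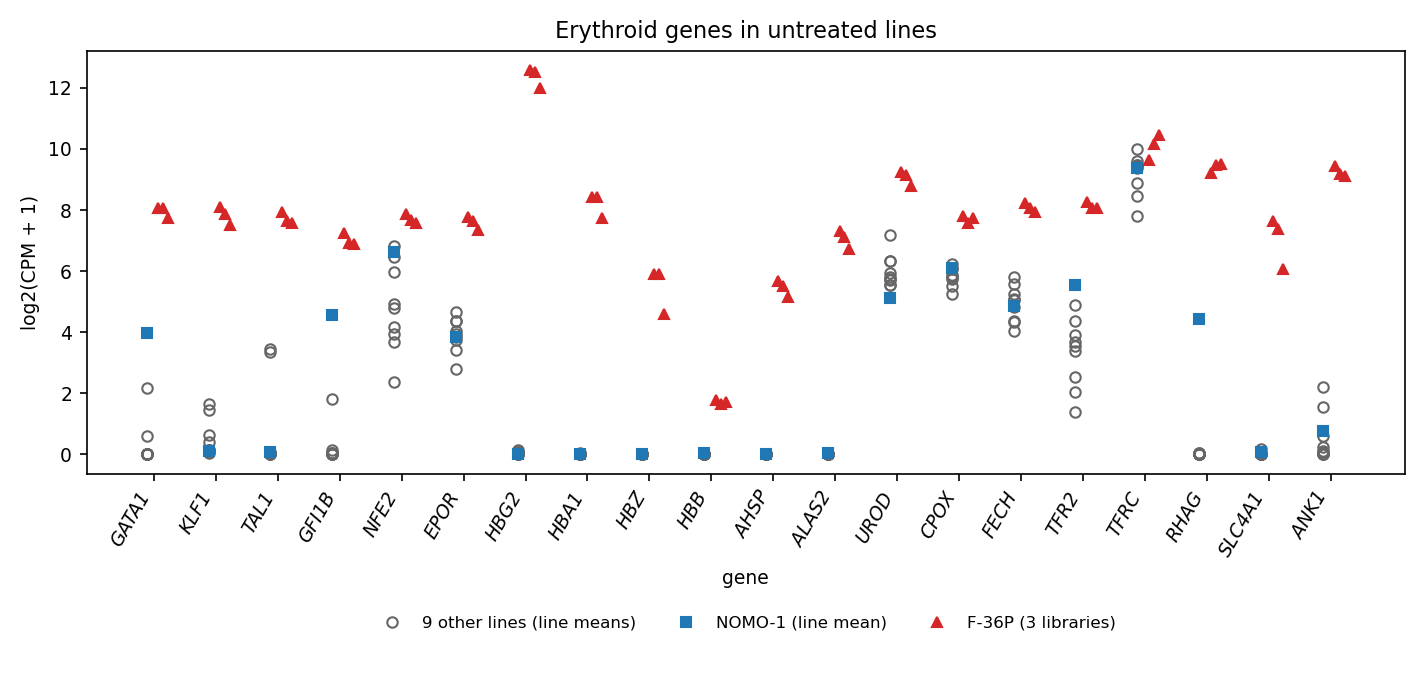
Levels of 20 erythroid genes on a log2(CPM + 1) scale, with 1 triangle for each of the 3 untreated F-36P libraries, a square for the mean of NOMO-1 and open circles for the means of the 9 other lines. The triangles lie above every other line for all genes shown but TFRC, where they run from 799 to 1410 CPM and overlap the highest line at 1027 CPM.

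Promoters of 5 genes that were called higher are shown because each holds the element AGATAA or TGATAA, the core that GATA factors recognise, on either strand (TTATCT and TTATCA are the same letters on the opposite strand). The sequences are the 250 bases before the annotated start in RefSeq on GRCh38.p14, written 5′ to 3′ in the direction of transcription, with the element in capitals. All 5 genes lie on the minus strand: EPOR at chr19:11384315-11384564, KLF1 at chr19:12887202-12887451, ALAS2 at chrX:55030978-55031227, KEL at chr7:142962364-142962613 and EPB42 at chr15:43221019-43221268. The element begins 78 bases before the start in EPOR, 66 in KLF1 and 127 in ALAS2. KEL holds it at 62 and 26 bases and EPB42 at 208 and 61 bases before the start.
EPOR: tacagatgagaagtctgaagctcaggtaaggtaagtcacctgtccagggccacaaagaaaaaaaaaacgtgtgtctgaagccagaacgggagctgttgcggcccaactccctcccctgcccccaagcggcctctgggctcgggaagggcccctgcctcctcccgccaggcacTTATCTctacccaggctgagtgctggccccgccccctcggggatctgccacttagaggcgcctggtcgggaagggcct
KLF1: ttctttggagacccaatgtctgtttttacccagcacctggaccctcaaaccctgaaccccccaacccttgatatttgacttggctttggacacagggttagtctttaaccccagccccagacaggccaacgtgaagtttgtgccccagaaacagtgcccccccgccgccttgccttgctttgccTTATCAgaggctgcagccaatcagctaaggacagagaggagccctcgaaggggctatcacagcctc
ALAS2: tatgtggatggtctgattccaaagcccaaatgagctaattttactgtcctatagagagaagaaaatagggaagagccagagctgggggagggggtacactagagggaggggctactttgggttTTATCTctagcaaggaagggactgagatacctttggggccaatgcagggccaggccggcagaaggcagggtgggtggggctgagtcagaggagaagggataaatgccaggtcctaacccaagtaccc
KEL: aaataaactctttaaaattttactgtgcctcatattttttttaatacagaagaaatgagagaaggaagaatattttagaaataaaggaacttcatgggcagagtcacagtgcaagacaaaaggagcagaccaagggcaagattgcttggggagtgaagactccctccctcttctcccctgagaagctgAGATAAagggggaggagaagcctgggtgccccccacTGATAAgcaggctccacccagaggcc
EPB42: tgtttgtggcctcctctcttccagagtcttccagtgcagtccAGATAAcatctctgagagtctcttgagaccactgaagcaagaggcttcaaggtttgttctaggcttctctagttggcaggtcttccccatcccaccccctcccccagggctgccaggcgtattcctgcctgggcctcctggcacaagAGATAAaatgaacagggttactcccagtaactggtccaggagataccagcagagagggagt
The element was found in 8 of the 15 called erythroid genes with a promoter in the table (53.3%), in 20 of 72 erythroid list genes (27.8%) and in 14.9% of the first promoters of 27305 genes. EPOR is on the list of cytokine receptors, so it is not among the 15 or the 72. A match is a description of the letters only.

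EPOR, the receptor of erythropoietin, was expressed at 220, 197 and 161 CPM in the F-36P libraries, against 6 CPM in NB-4, 13.8 CPM in the median line and 24.5 CPM in MV-4-11, the highest. The 3 libraries thus stood apart from the other 30, and the log2 fold change came to 3.73 ± 0.41 (standard error; adjusted p = 0.00097). KLF1, the erythroid Krüppel-like factor that activates adult globin and membrane genes, was at 272, 232 and 180 CPM in F-36P and at most 2.16 CPM elsewhere, in KASUMI-1. The log2 fold change reached 8.77, with a standard error of 1.35 (adjusted p = 0.0043).

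GATA1, the master regulator of the lineage, was read at 270, 267 and 211 CPM in F-36P. The median of the other lines was 0.00827 CPM and the highest, NOMO-1, 14.8 CPM. Its groups did not overlap, yet its log2 fold change of 7.11 had a standard error of 2.53 and an adjusted p of 0.2. The same held for TAL1, its partner in the erythroid complex, at 243, 198 and 191 CPM against at most 10 CPM in KASUMI-1 (adjusted p = 0.19), and for GFI1B, a repressor of the lineage, at 153, 121 and 118 CPM against 22.7 CPM in NOMO-1 (adjusted p = 0.36). For each factor a pair of other lines held most of the remaining reads, NOMO-1 and NB-4 for GATA1 and GFI1B, and KASUMI-1 and OCI-AML3 for TAL1.

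Of the 16 erythroid transcription factors and cofactors, 12 stood above all 30 other libraries, and KLF1, ZFPM1 and SOX6 were called higher. Over all genes of the wider fit these shares were 9.92% and 2.3%. SOX6 entered the wider fit through F-36P only, so its call is a description. ZFPM1, which encodes the GATA1 cofactor FOG1, was at 45.7, 37.7 and 33.1 CPM against 0.507 to 7.62 CPM in the other lines (log2 fold change 3.74, adjusted p = 0.019). SOX6, a repressor of embryonic globin, was at 25.5, 26.9 and 31.4 CPM with at most 0.0476 CPM elsewhere (adjusted p = 3.4e-05). LDB1 and LYL1, subunits of the GATA1 and TAL1 complex, had means of 325 and 290 CPM, above every other library, with adjusted p-values of 0.058 and 0.14. NFE2, a globin enhancer factor, was at 232, 202 and 188 CPM, but HL-60 had 113 CPM and the adjusted p was 0.33. LMO2, the bridging protein of the complex, lay within the range of the other lines at 190 CPM. MYB, a progenitor factor, lay below all of them at 247, 277 and 295 CPM against 340 CPM in the lowest line, without passing the test (adjusted p = 0.24).

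Globin reads in F-36P were nearly all fetal gamma. Because HBG1 and HBG2 are near-identical copies, as are HBA1 and HBA2, reads of each pair are given as a sum, and values of a single copy depend on how the reads were assigned. Gamma globin was at 6165, 5838 and 4067 CPM in F-36P and at most 0.107 CPM in another line, KASUMI-1, with 16 reads in all 30 libraries. It made up 90.5% ± 0.62 (SD, n = 3) of the globin reads of F-36P.

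Alpha globin was at 561, 557 and 338 CPM and made up 8.12% ± 0.511 of globin reads. Embryonic zeta globin (HBZ) was at 59.4, 59 and 23 CPM, or 0.765% ± 0.217, so the third library had less than the other two. Adult beta globin (HBB) was at 2.44, 2.13 and 2.29 CPM, or 0.0399% ± 0.00997, and lay below adult delta globin (HBD) at 19.1, 15.7 and 17 CPM. Embryonic epsilon globin (HBE1) was at 8.65, 8.61 and 7.61 CPM, with no read in any of the other 30 libraries.

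The wider fit held 10 of the 11 genes of the globin list, 8 of which entered it through F-36P only, and called HBA1, HBA2, HBB, HBG1, HBG2, HBZ and AHSP higher, HBG1 not without NOMO-1 (adjusted p = 0.091) or without replicate 3 of every line (0.087). Pooled over libraries, HBA2 had 10423 reads in F-36P and 1 in the others, a ratio of 110318 with a 95% counting interval from 19796 to 4357728 (adjusted p = 1.7e-06). HBB had 130 against 2 reads, a ratio of 688 with an interval from 187 to 5741 (adjusted p = 0.0012), and its call was lost without NOMO-1 (adjusted p = 0.13). AHSP, the chaperone of free alpha chains, was at 50.2, 44.9 and 34.8 CPM with 1 read elsewhere (adjusted p = 3.4e-05, 0.083 without MOLM-13 and 0.07 without replicate 2 of every line). HBE1, at 471 reads against 0, was at least 1662-fold higher by the limit of 3 reads over the 30 libraries, and missed the threshold (adjusted p = 0.098). These intervals and limits cover counting error only. HBG1 and AHSP had 1 read each in the other 30 libraries, and HBB had 2. In the fits that left out 1 line or 1 replicate, their log2 fold changes stayed at or above 11.35, 12.82 and 8.18. The calls were thus lost through higher p-values at a large fold, and why these rose was not tested. HBD and the theta globin gene HBQ1 were not called either (adjusted p = 0.23 and 0.38), and NOMO-1 held 1.75 and 2.31 CPM of them. Other tools differed on this list of 10, since DESeq2 called 6 higher and limma on log2(CPM + 1) called all 10. With 8 of the 10 entering through F-36P only, these counts are a description too. HBE1, HBD and HBQ1 are among the 10. Per kilobase of exon, HBG2 ranked 4 among 15074 protein-coding genes with reads in F-36P.

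Among regulators of the globin switch and fetal growth, none of the 12 genes that the wider fit held was called by edgeR, with 1 higher and 0 lower at an unadjusted p below 0.05, while DESeq2 called 1 higher and 1 lower. BCL11A, the repressor of gamma globin, was at 20, 21.1 and 16.4 CPM in F-36P, inside the range of the other lines from 0.0474 to 59 CPM. ZBTB7A, a further gamma repressor, was at 32.3, 28.7 and 21.2 CPM, also inside their range. LIN28B, a fetal RNA-binding protein, was at 18.1, 27.8 and 27.2 CPM against 0.0171 CPM in the median line and 54.2 CPM in NOMO-1.

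Of 14 genes of haem synthesis, 5 were called higher and 0 lower in the wider fit, and 6 stood above all other libraries. Over all genes of that fit these shares were 2.3%, 0.847% and 9.92%. ALAS2, the erythroid enzyme of the first step, was at 160, 137 and 105 CPM in F-36P, with 7552 reads against 3 in the other lines, a ratio of 26644 with an interval from 9113 to 129226 (adjusted p = 4.5e-05). ALAS1, its counterpart in other tissues, lay at 60.9, 54.2 and 49.3 CPM, below all other libraries (lowest line 68.5 CPM), with an adjusted p of 0.39. The levels of the 2 isoenzymes of the same step thus stood on opposite sides of the other lines. ALAS2 entered the wider fit through F-36P only, so its call is a description, and ALAS1 was not called.

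UROD, uroporphyrinogen decarboxylase, was at 607, 561 and 442 CPM against 34 to 146 CPM (log2 fold change 3.08, standard error 0.44, adjusted p = 0.0032). FECH, ferrochelatase, which inserts the iron, was at 302, 268 and 244 CPM against 15.4 to 55 CPM (log2 fold change 3.14, adjusted p = 0.0027). CPOX, coproporphyrinogen oxidase, was at 222, 190 and 213 CPM against 37.5 to 73.8 CPM (log2 fold change 1.89, adjusted p = 0.0043). PPOX, the enzyme between CPOX and FECH, passed narrowly at 56, 60 and 49.5 CPM against 10.7 to 26.9 CPM (adjusted p = 0.039), and its call was lost without the second F-36P library (adjusted p = 0.054) and in 8 of the 10 fits that left out 1 other line. Of the 6 fits that left out a replicate of F-36P or of every line, 3 kept the call of PPOX. ALAD, UROS and the mitochondrial carriers SLC25A38 and TMEM14C overlapped the other lines.

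Of 15 iron genes, 1 was called higher and 0 lower, and 4 stood above all other libraries. Over all genes of the wider fit these shares were 2.3%, 0.847% and 9.92%. TFR2, a transferrin receptor that also binds the erythropoietin receptor, was at 310, 268 and 266 CPM against 1.62 to 45.4 CPM (log2 fold change 4.27, adjusted p = 0.026, and 0.053 without MOLM-13). TFRC, the main transferrin receptor, was at 799, 1142 and 1410 CPM and overlapped the other lines at 222 to 1027 CPM (adjusted p = 0.45). FTH1, the heavy chain of ferritin, was at 1821, 1534 and 1202 CPM against 698 CPM in MONO-MAC-6, the highest other line (adjusted p = 0.07). SLC40A1, the iron exporter ferroportin, was at 237, 314 and 324 CPM against at most 41.6 CPM (adjusted p = 0.26). Both thus lay above every other library without passing the test.

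Of 28 genes of the red cell membrane and blood groups, 21 stood above all 30 other libraries and 10 were called higher, with 0 called lower. Among all genes of the wider fit, 9.92% stood above. Of the 10, 4 entered the wider fit through F-36P only, among them SLC4A1, RHD and ART4, so their calls are a description. Over all genes of that fit, 2.3% were called higher. GYPB, glycophorin B, which may share reads with similar genes of its family, was at 88.6, 88.6 and 76.3 CPM with no read elsewhere, at least 16931-fold higher by the limit of 3 reads, and missed the threshold narrowly (adjusted p = 0.052).

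The membrane skeleton was expressed throughout. ANK1, ankyrin, which ties the skeleton to the membrane, was at 702, 576 and 552 CPM against at most 3.63 CPM in NB-4 (log2 fold change 9.77, standard error 1.70, adjusted p = 0.009). SLC4A1, the anion exchanger band 3, was at 199, 166 and 66.3 CPM against at most 0.143 CPM (log2 fold change 12.46, adjusted p = 0.00097). Both were highest in the first library and lowest in the third. EPB42, protein 4.2, at a mean of 18.3 CPM (adjusted p = 0.008), and DMTN, dematin, at 29.8 CPM (adjusted p = 0.0099), were also called. SPTB, beta spectrin, at 226 CPM against 27.5 CPM in NOMO-1, and EPB41, protein 4.1, at 573 CPM against 265 CPM in KASUMI-1, stood above every library with adjusted p-values of 0.07 and 0.059.

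RHAG, the Rh-associated glycoprotein, was at 599, 714 and 728 CPM, 20.8 CPM in NOMO-1 and at most 0.0343 CPM in the 9 other lines. Over all 10 lines it was not called (adjusted p = 0.16), whereas without NOMO-1 the log2 fold change was 16.16 with an adjusted p of 5.9e-06. RHCE and RHD, the Rh antigens, which share reads, were called higher at means of 7.95 and 19.3 CPM (adjusted p = 0.00033 and 0.00029, the latter 0.087 without NOMO-1 and also without replicate 1 of every line). KEL, the Kell antigen, at 59.4, 58.4 and 55.3 CPM against at most 1.69 CPM (adjusted p = 0.031), lost its call in 6 of the 10 fits without 1 line, with adjusted p-values up to 0.06. ART4, the Dombrock antigen, was called at 7.21, 9.99 and 11.2 CPM (adjusted p = 7.8e-05, 0.099 without NOMO-1 and 0.1 without replicate 1 of every line). RHD had 2 reads and ART4 had 1 read in the other 30 libraries. Their log2 fold changes stayed at or above 11.22 and 10.62 when 1 line or 1 replicate was left out. CD36 and CD44 are surface proteins shared with myeloid cells. CD36, at 67, 101 and 140 CPM, overlapped the other lines. Its mean of 9.43 CPM per kilobase of exon lay above the highest line at 8.84. CD44, at 92.4, 85.8 and 78.9 CPM, lay within the range of the other lines.

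Of 18 genes of late erythroid enzymes and remodelling, 4 were called higher, 8 stood above all other libraries and 2 below. Among all genes of the wider fit, 9.92% stood above and 5.62% below. CA1, SELENBP1 and PKLR, 3 of the 4 called, entered the wider fit through F-36P only, so their calls are a description. Over all genes of that fit, 2.3% were called higher. CA1, the carbonic anhydrase of red cells, was at 419, 469 and 462 CPM against at most 0.0801 CPM (log2 fold change 15.04, standard error 1.06, adjusted p = 3.2e-05), whereas its relative CA2 was at 119 CPM in F-36P and 1839 CPM in THP-1. BLVRB, biliverdin reductase B, was at 327, 309 and 247 CPM against 4.08 to 23.6 CPM (log2 fold change 4.70, adjusted p = 0.00089). SELENBP1, a selenium-binding protein of red cells, was at 69.2 CPM (adjusted p = 0.00094) and PKLR, the pyruvate kinase of red cells and liver, at 28.7 CPM (adjusted p = 9.5e-05). CAT, catalase, was low, at 74.9, 77.7 and 80.1 CPM against 156 to 891 CPM, without passing the test (adjusted p = 0.18). RHEX, a regulator of erythropoietin signalling in human erythroblasts, was nearly unread in F-36P, with 2 reads against 1.76 to 127 CPM elsewhere (adjusted p = 0.21). The genes of this late list thus did not move as a block.

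**Figure D2:**
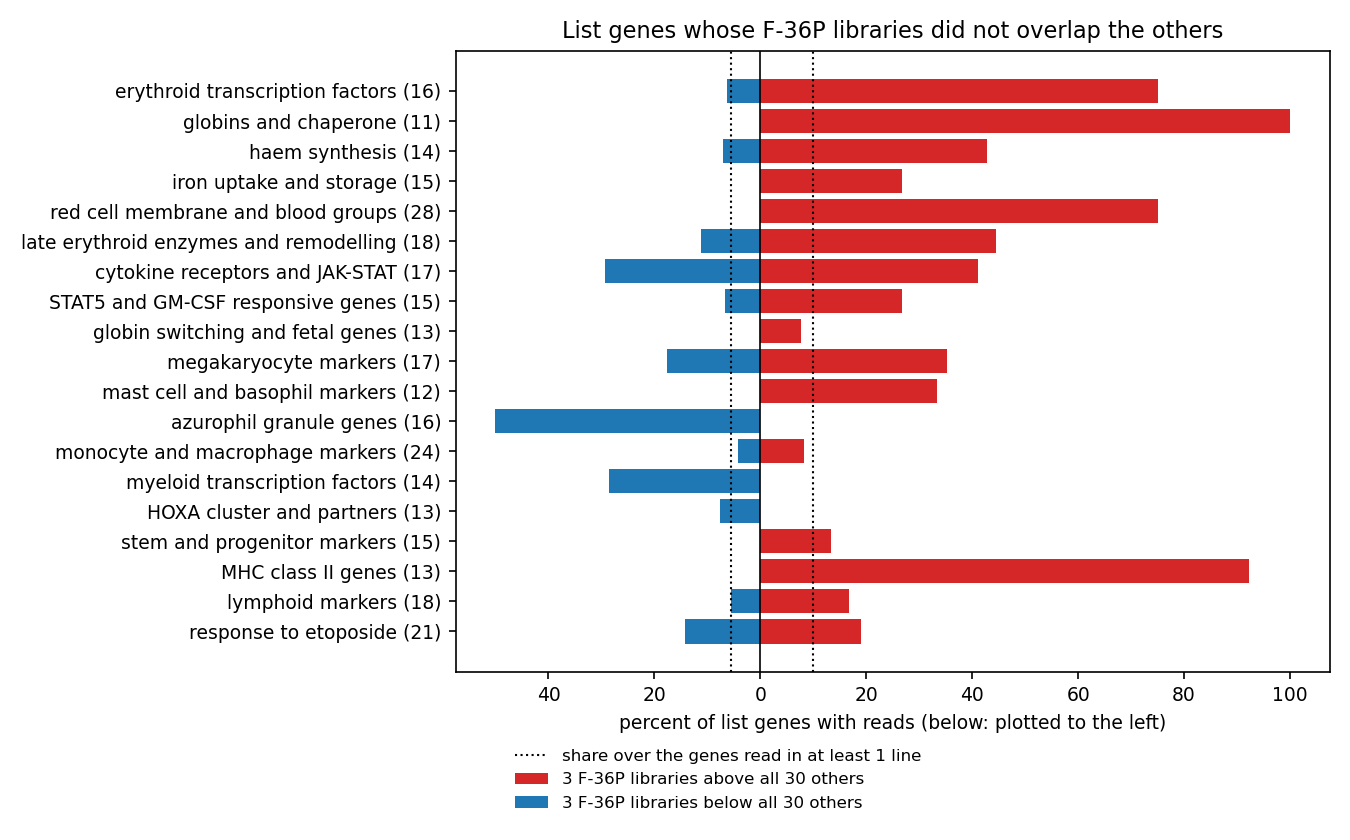
Share of each list's genes with reads, in percent, whose 3 untreated F-36P libraries stood above (right) or below (left) all 30 libraries of the other lines, with the number of genes in brackets and dotted lines at the shares over the 21831 genes read in at least 1 line (9.92% and 5.62%). Globins, erythroid factors, membrane genes and MHC class II genes reach farthest to the right and azurophil granule genes farthest to the left.

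Of 60 erythroid genes at 1 CPM or more that stood above all other libraries in F-36P, NOMO-1 was the highest other line for 21 (35%), beside 19.4% over all 1806 genes of this kind. KASUMI-1 was the highest for 13 (21.7%), near its share of 17% over all of them. These shares are given as a description.

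The 3 F-36P libraries also differed among themselves. Of the 62 erythroid genes above all other libraries, the first library was highest for 46 and the third lowest for 42, while over all 2165 such genes these shares were 52.6% and 47.4%. The third library relative to the first had a median log2 ratio of -0.33 over 254 genes with at most 1500 bases of exon and of -0.05 over 3726 genes with more than 6000 bases. HBG2, HBA1 and HBZ, which are short, were lowest in the third library, and TFRC, which is long, was highest there. The part of exon length in any single level was not tested. The chi-square per degree of freedom between F-36P libraries was 24.4 to 83.5, so all 3 differed by more than counting error. Within the other lines it ran from 2.05 to 21.7, so every F-36P pair differed more than any pair of another line.

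Erythropoietin and GM-CSF both signal through JAK2 and STAT5. Of 17 cytokine receptor and JAK-STAT genes with reads, EPOR and JAK1 were called higher, 7 stood above all other libraries and 5 below. Over all genes of the wider fit these shares were 2.3%, 9.92% and 5.62%. CSF2RB, the beta chain shared by the receptors of GM-CSF, IL-3 and IL-5, was at 229, 199 and 205 CPM against 7.43 to 85.9 CPM, above every library but without a call (adjusted p = 0.12). CSF2RA and IL3RA, their alpha chains, were listed at 0 in all 33 libraries, and so were not measured. JAK2, the kinase of both receptors, was at 84.3, 120 and 166 CPM against at most 59.8 CPM (adjusted p = 0.085). STAT5A, at 447, 385 and 326 CPM, and STAT5B, at 457, 381 and 348 CPM, were likewise above all others without a call (adjusted p = 0.31 and 0.12). JAK1, at 217, 219 and 247 CPM against 90.1 to 133 CPM, was called with a log2 fold change of 1.11 (adjusted p = 0.033) and lost the call in 7 of the 10 fits without 1 line, with adjusted p-values up to 0.067, and without replicate 3 of every line (adjusted p = 0.06).

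Receptors of other programmes gave no call. FLT3, a receptor kinase of progenitors, had no read in F-36P against 5.51 to 2914 CPM, at least 8709-fold lower than the pooled other lines, though without a call (adjusted p = 0.28). KIT, the stem cell factor receptor, was at 1.5, 1.91 and 2.19 CPM in F-36P, 984 CPM in KASUMI-1 and 0.811 CPM in the median line (adjusted p = 0.72). It thus lay above the median line and far below KASUMI-1, and the sign of its log2 fold change turned when single libraries replaced line sums. CSF3R, the receptor of granulocyte colony stimulating factor, was below all other libraries at 44.4, 38.9 and 42.5 CPM (adjusted p = 0.43).

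Among 15 genes responsive to STAT5 and GM-CSF, BCL2L1 and PIM2 were called higher, beside 2.3% over all genes of the wider fit. BCL2L1, which encodes the survival protein BCL-XL, was at 332, 289 and 281 CPM in F-36P and between 22.4 and 46.8 CPM in every other line, a narrow range (log2 fold change 3.37, standard error 0.32, adjusted p = 0.00029). PIM2, a survival kinase, was at 134, 112 and 106 CPM against 19.8 to 47 CPM (log2 fold change 1.93, adjusted p = 0.019). PIM1, its relative, at 657, 551 and 532 CPM, and the feedback inhibitor SOCS3, at 29.8, 24.3 and 24.1 CPM, were above all other libraries without a call (adjusted p = 0.34 and 0.29). CISH and SOCS2, inhibitors in the same loop, lay within the range of the others, where MOLM-13 was highest with 85.3 and 239 CPM.

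Markers of other cell types were read alongside the erythroid genes. Of 17 megakaryocyte markers with reads, 6 stood above and 3 below all other libraries. Over all genes of the wider fit, 9.92% stood above, 5.62% stood below and 2.3% were called higher. ITGA2B, the integrin CD41 of megakaryocytes and early erythroid progenitors, was at 430, 375 and 373 CPM against at most 20.1 CPM in NOMO-1 (log2 fold change 6.95, standard error 1.17, adjusted p = 0.0083). TUBB1, the platelet tubulin, at 5.01 CPM, and GP6, the platelet collagen receptor, at 1.71 CPM, were called as well (adjusted p = 0.00097 and 0.0029). Both genes entered the wider fit through F-36P only, so their calls are a description. The alpha granule genes PF4 and PPBP had no read in F-36P, and FLI1, the factor that opposes KLF1 in this choice of lineage, lay below all other libraries at 56, 51 and 55.5 CPM against 83.9 CPM in the lowest line (adjusted p = 0.21). The summed level of the list, 590 to 664 CPM in F-36P, lay within that of the other lines, 414 to 897 CPM.

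Of 12 mast cell and basophil markers with reads, 4 stood above all other libraries, beside 9.92% over all genes of the wider fit. None of the 11 in that fit was called by edgeR (2 higher and 1 lower at an unadjusted p below 0.05, with 2 higher and 1 lower by DESeq2). CPA3, the mast cell carboxypeptidase, was at 37.2, 52.5 and 103 CPM against 8.31 CPM in NOMO-1 (adjusted p = 0.3), and MITF at 63.7, 67.6 and 69.7 CPM against at most 14.8 CPM (adjusted p = 0.22). The tryptase gene TPSAB1 and the IgE receptor chain MS4A2 had no read in F-36P. GATA2, the factor of progenitors and mast cells, lay within the range of the other lines at 105 CPM.

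MHC class II genes were high in F-36P, with 12 of 13 above all other libraries and 2 of 12 in the wider fit called higher. Over all genes of that fit these shares were 9.92% and 2.3%. HLA-DRA, the alpha chain of HLA-DR, was at 106, 120 and 127 CPM against 4.93 CPM in the median line and 42.5 CPM in NOMO-1 (adjusted p = 0.47). CD74, the invariant chain that escorts class II molecules, was at 767, 686 and 761 CPM against at most 554 CPM in NOMO-1 (adjusted p = 0.7), and CIITA, the class II transactivator, at 132, 111 and 122 CPM against at most 33.4 CPM (adjusted p = 0.5). HLA-DQA1 was called at 11.1, 10.7 and 15.6 CPM against at most 0.222 CPM (adjusted p = 0.011), and HLA-DMA at 20, 17 and 17.7 CPM against at most 2.32 CPM (adjusted p = 0.039), which lost its call in 6 of the 10 fits without 1 line and without replicate 1 of every line (adjusted p up to 0.066). Counts of HLA genes depend on the alleles of each line, since reads are mapped to a reference allele. The list is shown because its summed level, 1329 to 1454 CPM, was above that of every other line (0.517 to 663 CPM).

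Stem cell, lymphoid and HOXA genes gave few calls. MECOM, the EVI1 oncogene of progenitors, was at 21.4, 31.8 and 46.6 CPM with no read elsewhere, at least 6774-fold higher by the limit of 3 reads, and missed the threshold (adjusted p = 0.073). CD34 was at 34.7, 30.4 and 26.8 CPM, below KASUMI-1 at 604 CPM, and PROM1 and THY1 were nearly unread. CD7, of early lymphoid cells, was called at 13.8, 12.1 and 10.8 CPM (adjusted p = 0.0096), while MS4A1 had no read. HOXA9, a progenitor gene of many AML lines, had 1 read in F-36P against 57.8 CPM in the median line (adjusted p = 0.31), and MEIS1, its partner, was at 0.654 CPM against 47.6 CPM. No gene of the 13 on the HOXA list was called by edgeR, with 0 higher and 4 lower at an unadjusted p below 0.05, whereas DESeq2 called 6 lower. Other lines also lacked these genes, since HOXA9 was at 0 CPM in the lowest line.

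**Figure D3:**
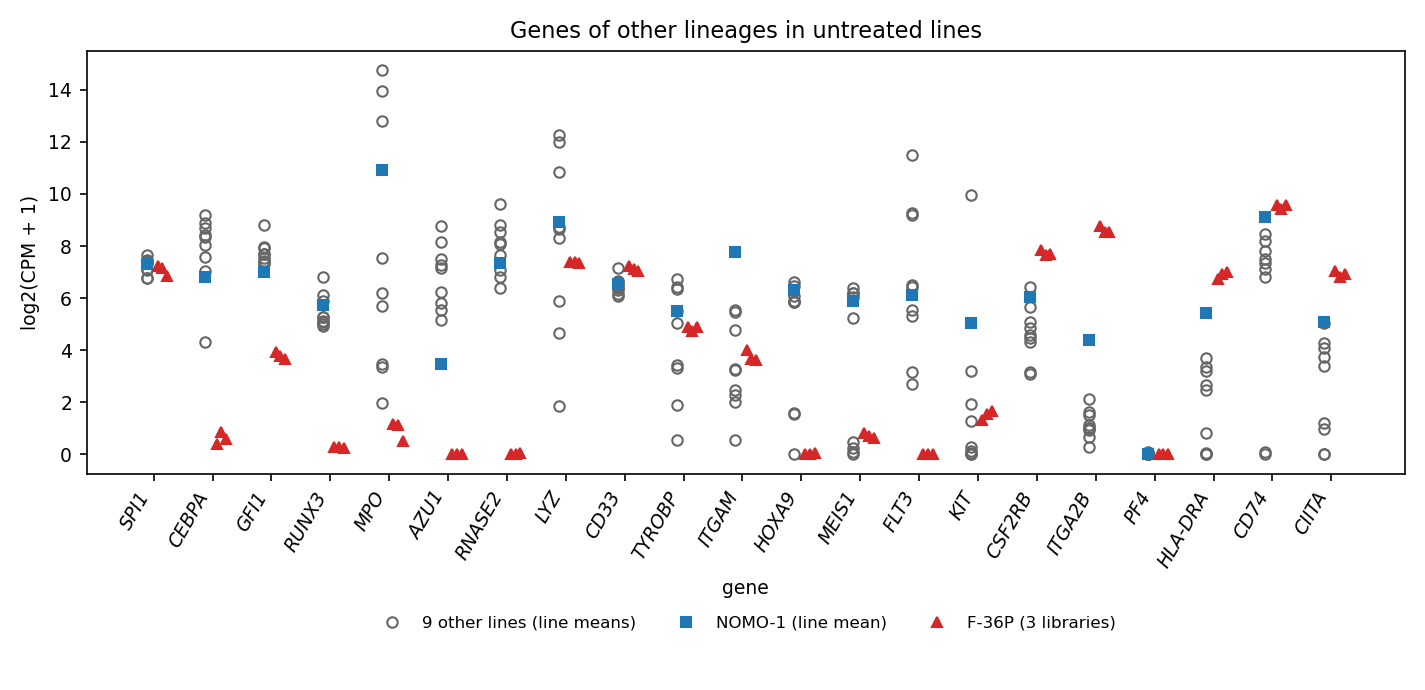
Levels of 21 genes of other lineages on a log2(CPM + 1) scale, drawn as for the erythroid genes (triangles, 3 untreated F-36P libraries; squares, NOMO-1; circles, 9 other lines). The triangles lie below the other lines for CEBPA, GFI1, RUNX3, MPO, AZU1 and RNASE2, within their range for SPI1, LYZ and TYROBP, and above it for ITGA2B, CSF2RB and HLA-DRA.

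Of 54 myeloid genes with reads on 3 lists, 13 stood below all 30 other libraries and 2 above, and the wider fit called 6 lower and 0 higher. Over all genes of that fit these shares were 5.62%, 9.92%, 0.847% and 2.3%. Of the 6, 3 entered that fit through all other lines and not through F-36P, so these calls are a description. DESeq2 called 24 of them lower and 0 higher, and 13 were lower and 0 higher at an unadjusted p below 0.05. The 6 calls became 3 without MOLM-13, MV-4-11, OCI-AML2 or OCI-AML3 each, and 0 against the 5 lines outside the M5 class by edgeR, where 12 were lower at an unadjusted p below 0.05. The median difference was -1.55 in log2(CPM + 1) over these genes.

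CEBPA, the factor that drives granulocyte and monocyte fate, was at 0.333, 0.797 and 0.498 CPM in F-36P against 18.9 CPM in KASUMI-1 and 111 to 584 CPM in the 9 other lines. The log2 fold change reached -9.00 (adjusted p = 0.038), and the adjusted p rose to at most 0.057 in the fits that left out 1 line, 6 of which lost the call. GFI1, a transcriptional repressor that granulocyte development requires, was at 14.1, 12.8 and 11.7 CPM against 129 to 445 CPM (log2 fold change -4.03, standard error 0.71, adjusted p = 0.011). RUNX3, a relative of RUNX1, was at 0.222, 0.213 and 0.199 CPM against 29.3 to 112 CPM (log2 fold change -7.82, standard error 1.11, adjusted p = 0.003). These 3 were the called genes among 14 myeloid transcription factors.

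SPI1, which encodes PU.1, was not low in F-36P, at 149, 142 and 114 CPM against 108 to 201 CPM (log2 fold change -0.14, standard error 0.35, adjusted p = 0.89). RUNX1 and CEBPB also lay within the range of the other lines at 132 and 16.8 CPM. IRF8, a monocyte factor, had 1 read against 397 CPM in the median line, but the lowest other line had 0.0177 CPM (adjusted p = 0.32).

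Genes of the azurophil granule list were largely unread, with 8 of 16 below all other libraries, beside 5.62% over all genes of the wider fit. The list also holds RNASE2 and RNASE3, which are ribonucleases of eosinophils. MPO, myeloperoxidase, was at 1.28, 1.17 and 0.448 CPM, below every library but spanning 2.96 to 27701 CPM in the other lines (adjusted p = 0.43). RNASE2, the eosinophil-derived neurotoxin, had 1 read against 82.9 to 788 CPM, a pooled ratio of 16220 with an interval from 2911 to 640673 (adjusted p = 0.0057). AZU1, azurocidin, and RNASE3 had no read and were at least 2651-fold and 505-fold lower (adjusted p = 0.044 and 0.037). RNASE2, AZU1 and RNASE3 entered the wider fit through all other lines and not through F-36P, so their calls are a description. The call of AZU1 was lost without any single F-36P library (adjusted p from 0.051 to 0.053), and leaving out 1 line ended the call of AZU1 in 7 and of RNASE3 in 5 of 10 fits (adjusted p up to 0.069 and 0.059). Of the 6 fits that left out a replicate of F-36P or of every line, 1 kept the call of AZU1. LYZ, lysozyme, lay within the range of the other lines at 167, 164 and 162 CPM (adjusted p = 0.69).

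Monocyte and macrophage markers gave no call by edgeR among 24 genes, with 0 higher and 1 lower at an unadjusted p below 0.05, whereas DESeq2 called 8 lower. S100A8 had no read and S100A9 1 read in F-36P, while the other lines ran from 0.0355 to 459 CPM and from 0.267 to 1213 CPM. TYROBP, an adaptor of myeloid receptors, was at 28.3, 26 and 29.1 CPM against 0.486 to 105 CPM, and CD33 at 148, 139 and 130 CPM against 66.6 to 144 CPM. Both lay within or at the edge of the other lines, as did ITGB2 and NCF4. FCGR2A and CD4 stood above all libraries, at 75.3 and 325 CPM, without passing the test.

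Among all genes read in every line, the 15 protein-coding genes called higher with the largest distance to the nearest line, at 10 CPM or more, were TAFA2, H1-2, ITGA2B, AQP3, COL18A1, NEO1, LEPR, EPAS1, BLVRB, DSE, FGD6, GDPD1, CEMIP2, EPOR and MDK. TAFA2, a secreted chemokine-like protein, was at 125, 133 and 160 CPM against at most 3.82 CPM (log2 fold change 6.77, standard error 0.52, adjusted p = 7.1e-05). AQP3, a water and glycerol channel of red cells, was at 619, 558 and 489 CPM against at most 30.8 CPM (log2 fold change 5.78, adjusted p = 0.02). LEPR, the leptin receptor, was at 210, 254 and 343 CPM against at most 19.4 CPM (log2 fold change 5.53, adjusted p = 0.0056). COL18A1, a basement membrane collagen, was at 262, 241 and 175 CPM against at most 15.3 CPM (log2 fold change 4.97, adjusted p = 0.0029). EPAS1, the hypoxia-inducible factor HIF-2alpha, at 325, 261 and 269 CPM (adjusted p = 0.039), NEO1, neogenin, at 406, 333 and 359 CPM (adjusted p = 0.038), and MDK, the growth factor midkine, at 501, 468 and 399 CPM (adjusted p = 0.049), passed narrowly. Leaving out 1 line ended the call of EPAS1 in 7, of NEO1 in 5 and of MDK in 9 of 10 fits, and MDK also lost it without the first or the second F-36P library (adjusted p = 0.055 and 0.052). Of the 6 fits that left out a replicate of F-36P or of every line, 3 kept the call of MDK.

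In the wider fit the corresponding genes included HBG2, RELN, CA1, HBA1, HBA2, FAM83A, NMU, ALAS2, KLK6, RIPOR3, SFRP5, GALNT5, EPHA3 and FAM178B. Of these, 5 are on the erythroid lists, and all but FAM83A entered the fit through F-36P only, so their p-values are a description. RELN, the matrix protein reelin, was at 521, 631 and 750 CPM in F-36P with 5 reads in the other 30 libraries (adjusted p = 3.9e-06). FAM83A, a signalling scaffold, was at 640, 531 and 519 CPM against at most 0.164 CPM (log2 fold change 13.05, adjusted p = 1.7e-06). NMU, the peptide neuromedin U, was at 196, 188 and 175 CPM with 3 reads elsewhere, a ratio of 37351 with an interval from 12777 to 181148 (adjusted p = 4.9e-05). KLK6, a secreted protease, was at 146, 133 and 106 CPM with 3 reads elsewhere (adjusted p = 4.9e-05). SFRP5, a secreted inhibitor of WNT, was at 129, 113 and 102 CPM with no read elsewhere and only just passed (adjusted p = 0.047, 0.051 without the first F-36P library and up to 0.057 in the 6 of 10 fits without 1 line that lost the call).

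Genes called lower by the same rule were DPP7, PLPPR3, SYK, RUNX3, ENOSF1, FAM107B, TIMP2, IMPA2, DNAAF9, NF1, DGAT2, PGM1, CDCA7L, APH1B and SYNE3 in the fit of genes read in every line. SYK, a tyrosine kinase of immune receptors, was at 0.388, 0.425 and 0.149 CPM against 49.3 to 466 CPM (log2 fold change -9.47, standard error 1.62, adjusted p = 0.0094). NF1, neurofibromin, which turns off RAS, was at 1.17, 1.06 and 1.04 CPM against 67.4 to 184 CPM (log2 fold change -6.67, standard error 0.75, adjusted p = 0.0011). DPP7, a dipeptidyl peptidase, was at 0.543 CPM against 131 to 375 CPM (log2 fold change -8.56, adjusted p = 0.00029). PGM1, phosphoglucomutase, was at 0.32 CPM against 15.6 to 111 CPM (adjusted p = 0.012).

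The wider fit, which all of these but DPP7 entered through the other lines and not through F-36P, named NSD1, RNASE2, RASSF4, IL17RA, HDHD5, TRPM2, DIAPH2, EMB, OSBPL1A, CIDEB, SLC2A5, BTBD6, DPP7, HPDL and AZU1. NSD1, the histone H3 lysine methyltransferase, was at 0.0555, 0.0531 and 0.0995 CPM in F-36P, whereas every other line had between 138 and 271 CPM (log2 fold change -11.39, standard error 0.75, adjusted p = 1.6e-05). IL17RA, the interleukin-17 receptor, had no read against 44.7 to 807 CPM and was at least 5459-fold lower (adjusted p = 0.0057). DIAPH2, a formin on the X chromosome, had no read against 33.4 to 83.8 CPM and was at least 986-fold lower (adjusted p = 9.6e-05).

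These belong to a wider group of genes that every other line used and F-36P did not. Of 7745 protein-coding genes at 5 CPM or more in all 10 lines, 90 (1.162%) were more than 16-fold below the nearest line in F-36P, 23 of them with at most 3 reads and 14 with none. The choice of the 90 genes rests on the same levels as the test, so no count of calls is given for them. The 14 genes without a read included FLT3, NLRP3, IRX3, PRTN3 and AZU1 in addition to IL17RA and DIAPH2. The 90 genes lay on 22 chromosomes, and 15 lay within 500000 bases of another. Such neighbours were IL17RA and HDHD5 on chromosome 22, PLPPR3, AZU1 and PRTN3 on chromosome 19, TTC39C and OSBPL1A on chromosome 18, NLRC5 and CPNE2 on chromosome 16, and NF1 and EVI2A, a gene inside an intron of NF1, on chromosome 17. No DNA was measured, so a lost copy and a silent gene cannot be told apart.

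Neighbouring genes also moved together on some chromosome arms. Among arms with at least 50 tested genes, the median log2 fold change ran from -1.11 on 13q (200 genes) and -0.759 on 7p (183 genes) to 0.299 on 9p (107 genes) and 0.332 on 22q (275 genes), beside -0.06 over all genes. On 7p, 64 genes (35%) stood below all 30 other libraries and 8 (4.37%) above, against 8.8% and 8.27% of all genes in this fit. On 22q, 55 genes (20%) stood above and 12 (4.36%) below.

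The short arm of chromosome 19 differed in another way, with stretches on both sides. It held 376 tested genes, of which 27 were called higher and 11 lower, and 63 (16.8%) stood above and 59 (15.7%) below all other libraries. Of 10811 windows of 20 neighbouring tested genes over the genome, the 3 with the highest medians were on this arm, at chr19:16496394-17323298 (1.18), chr19:10701430-11450968 (1.11) and chr19:12922479-14053218 (0.98). The lowest, at chr19:6375148-7864976, was there too (-1.65). The central 95% of windows lay between -0.99 and 0.58.

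The window at chr19:10701430-11450968 (GRCh38) holds EPOR and SMARCA4, and KLF1 lies between it and the third. SMARCA4, the ATPase of the SWI/SNF chromatin remodeller, was at 813, 653 and 670 CPM against 172 to 378 CPM (log2 fold change 1.48, standard error 0.29, adjusted p = 0.021). In a stretch of 62 tested genes from SLC44A2 to NACC1, which includes EPOR and SMARCA4 and spans KLF1, a gene this fit does not hold, 24 genes stood above all other libraries and 10 were called higher, with a median log2 fold change of 0.56. From MAP2K2 to HDGFL2, 7 of 9 genes stood above all others with a median of 1.37, and MAP2K2, the kinase MEK2, was at 313, 274 and 220 CPM against 56.9 to 107 CPM (log2 fold change 1.72, adjusted p = 0.0065). From DPP9 to MCOLN1, 17 of 37 genes stood below with a median of -1.04, among them INSR, the insulin receptor, at 1.61, 1.01 and 1.05 CPM against 36.2 to 154 CPM (log2 fold change -6.03, standard error 0.85, adjusted p = 0.0029). The limits of these stretches were drawn after their values were seen, so they carry no test. The difference of EPOR exceeded the median of its stretch, 3.73 against 0.56 in log2 fold change.

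**Figure D4:**
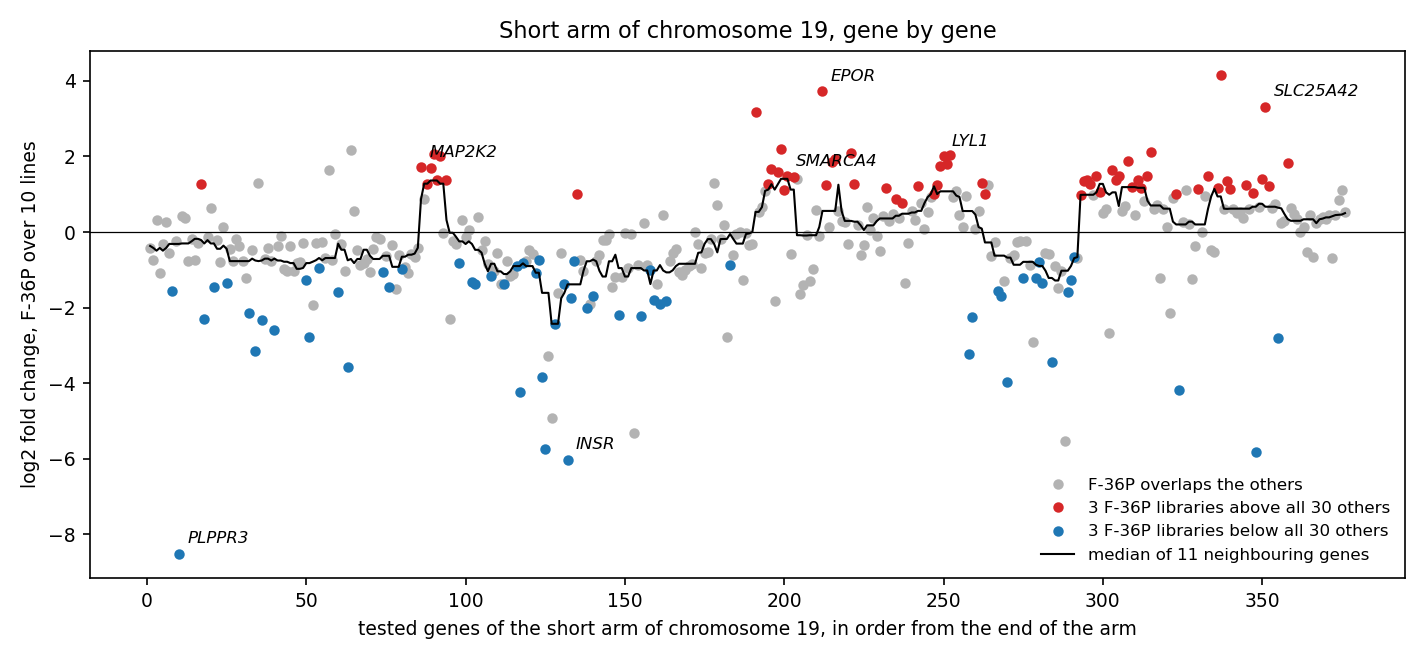
Log2 fold change of F-36P over the 10 other lines for 376 tested genes of the short arm of chromosome 19 in their order along the arm, coloured by whether the 3 F-36P libraries stood above (red) or below (blue) all 30 others or overlapped them (grey), with the running median of 11 genes as a line. The line changes sign several times, and EPOR (3.73) and PLPPR3 (-8.52) lie far from it.

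For genes tied to the response to etoposide, 4 of 21 were called. Over all genes of the wider fit, 2.3% were called higher and 0.847% lower. TOP2A, the target of the drug in dividing cells, was at 79.4, 114 and 205 CPM against 331 to 883 CPM (log2 fold change -2.14, standard error 0.46, adjusted p = 0.033). Its 3 F-36P values differed more than 2-fold, and the call was lost without the first F-36P library (log2 fold change -1.91, adjusted p = 0.051) and without MOLM-13 or OCI-AML2 (adjusted p = 0.053 and 0.054). Of the 6 fits that left out a replicate of F-36P or of every line, 4 kept the call of TOP2A. TOP2B, the second isoenzyme, was at 96.1, 142 and 230 CPM against 271 to 732 CPM (adjusted p = 0.19). NOTCH1, a receptor of cell fate, was called lower at 5.1, 4.52 and 5.03 CPM against 44.4 to 111 CPM (log2 fold change -3.84, adjusted p = 0.0041), and SMARCA4 and BCL2L1 were called higher as given above. SLFN11, which halts stressed replication, was at 7.81 CPM against 145 CPM in the median line, but KASUMI-1 had no read (adjusted p = 0.58). MDM2, BAX and MCL1 lay within the range of the other lines.

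F-36P stood farther from the other lines than they did from one another. Over 13676 genes, its correlation in log2(CPM + 1) with another line ran from 0.721 with THP-1 to 0.772 with KASUMI-1, while pairs of the other lines ran from 0.795 to 0.93 with a median of 0.849. These are correlations across genes, which are not independent, and pairs share lines, so they are given as a description. At 5 CPM or more, 359 genes (311 protein-coding) were more than 4-fold above every other line in F-36P, and 162 (158 protein-coding) more than 4-fold below. In the other lines these numbers ran from 13 in MV-4-11 to 128 in NOMO-1 and from 8 in MOLM-13 to 52 in KASUMI-1.

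**Figure D5:**
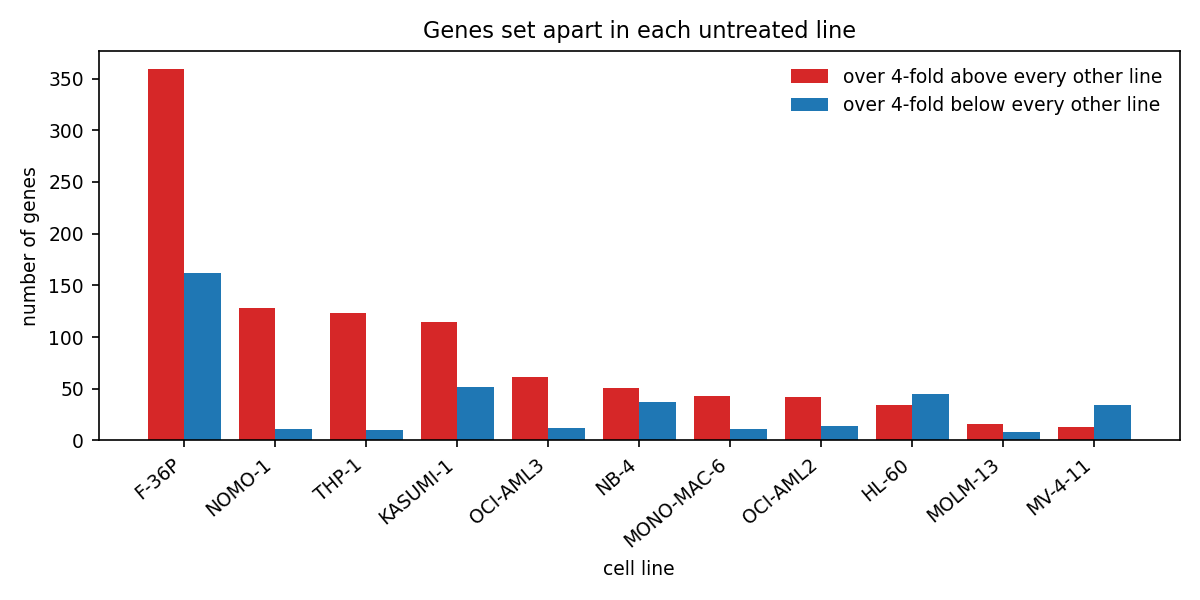
Number of genes at 5 CPM or more that lay over 4-fold above (red) or below (blue) every other untreated line, for each of the 11 lines, from the mean of 3 libraries. F-36P has 359 above and 162 below, and no other line exceeds 128 and 52.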

How the data were processed

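RNA of untreated cells of 11 AML lines was sequenced by the authors, who deposited whole-number read counts per gene, unnormalised, for each library. The submitters' processing notes name FastQC 0.11.5, STAR 2.5.3a, edgeR 3.20.1 and GRCh38.p7, and the study's methods gencode 25. Of 58037 identifiers, 45 second copies of pseudoautosomal genes on chromosome Y were left out. Of the 57992 analysed, 56948 matched gencode 44, the source of names and positions, 41445 of them with a symbol.

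Counts of the 3 libraries of a line were summed, and F-36P was compared with the 10 other lines by edgeR 4.0.16 (TMM, filterByExpr, glmQLFit and glmQLFTest, Benjamini-Hochberg adjustment) in R 4.3.3, after the scripts were tested on simulated data. There the fit of genes read in every line recovered 39 of 100 4-fold and 84 of 100 16-fold changes, with 4 false calls. The wider fit recovered 17 and 67 of 100, with 12 false calls. A gene without a call may therefore still differ. The recovered counts cover only the 100 genes changed at each fold. How recovery depends on the reads of a gene, as for genes silent in the other lines, was not tested. filterByExpr, with a minimum of 10 reads, kept genes read in all 11 lines. The wider fit, added after seeing this, kept genes at 0.1677 CPM or more in at least 1 line sum. Counts of 0 were given a limit of 3 reads over the group, and ratios with 1 to 3 reads a 95% exact (Clopper-Pearson) interval.

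Alternatives were other scalings, filters, folds and units, DESeq2 1.42.0, limma 3.58.1 on log2(CPM + 1) and log2(CPM + 0.25), and leaving out libraries or lines. Tables and figures were made with Python 3.11.15, numpy 2.4.6, pandas 2.3.3 and matplotlib 3.10.9. The members and the 19 gene lists were chosen with earlier results of these data known. Named genes were list members and, per direction, the 15 called protein-coding genes farthest from the nearest line at 10 CPM or more whose groups did not overlap. Genes singled out on chromosome arms, and among the genes without reads, were chosen after their values were seen. A few listed genes counted in these totals are not reported here by name.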

Additional observations from a re-analysis of the deposited data

Results flagged for a closer look

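Of 37 sets of 10 other lines checked, key genes and summed lists, 7 held a line that stood far from the rest by Dixon's criterion, which chance meets in about 1 in 20 groups. NOMO-1 was the highest of the other lines for GFI1B at 22.7 CPM (next 2.54 CPM), for RHAG at 20.8 CPM (next 0.0343 CPM), for ITGA2B at 20.1 CPM (next 3.35 CPM) and for the summed globins and chaperone at 4.11 CPM (next 1.06 CPM). KASUMI-1 was the highest for KIT at 984 CPM (next 32.5 CPM) and the lowest for CEBPA at 18.9 CPM (next 111 CPM). THP-1 was the highest for the summed late erythroid genes at 3133 CPM, where CA2 alone reached 1839 CPM.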

How the results depend on the processing

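Counts of calls changed with the unit of replication, the tool, the filter and the lines compared, and the cause of each change was not tested. Among genes read in every line, 143 were called higher. This became 490 without a filter, 502 with the wider filter, 264 with DESeq2, 86 at a fold above 4, 94 without MOLM-13 and 36 against the 5 lines outside the monocytic M5 class. The 105 lower genes became 164 at a mean of 5 CPM, 185 with the wider filter, 686 with DESeq2, 187 and 210 with limma on log2(CPM + 1) and log2(CPM + 0.25), 160 without KASUMI-1 and 19 against the 5 lines. The 7 higher erythroid genes became 30 without a filter, 19 at a mean of 5 CPM, 30 with the wider filter, 12 with DESeq2, 11 without KASUMI-1 and 1 against the 5 lines. The 3 lower myeloid genes became 6 without a filter, 6 at a mean of 5 CPM, 6 with the wider filter, 8 with DESeq2 and 1 against the 5 lines.

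In the wider fit, the 502 higher genes became 754 and 980 with the same limma settings and 39 against the 5 lines. The 185 lower genes became 1199 with DESeq2, 285 and 351 with limma and 10 against the 5 lines. The 30 higher erythroid genes became 7 against the 5 lines. The 6 lower myeloid genes became 24 with DESeq2, 10 with limma on log2(CPM + 0.25), 3 without MOLM-13, MV-4-11, OCI-AML2 or OCI-AML3 each, and 0 against the 5 lines by edgeR, with 12 lower at an unadjusted p below 0.05.

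With 33 single libraries in place of line sums, so that the spread is that between libraries of a line, 1261 genes were higher, 1572 lower, 26 erythroid genes higher and 9 myeloid genes lower, and in the wider fit 4712, 2709, 70 and 26. With the replicate number as a block these were 1261, 1574, 26 and 9, and 4688, 2692, 70 and 26. The numbers did not pair F-36P with the other lines, since 1, 2 and 3 of 10 pairs had correlated deviations over 0.1.

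Leaving out 1 replicate gave 107 to 176 higher, 90 to 122 lower, 6 to 10 erythroid and 2 to 3 myeloid genes, and in the wider fit 451 to 471, 174 to 194, 29 to 31 and 5 to 7. Of 2834 settings over 113 named genes, 2608 kept direction and call, 182 lost the call, 37 gained it and 7 turned direction. These were TYROBP (0.40 and 0.53 with limma, 0.60 with single libraries with and without the block, 0.11 against the 5 lines) and KIT (1.21 with single libraries, 1.22 with the block). Another scaling moved the median log2 fold change of all genes from -0.06 to at most -0.086, and in the wider fit from -0.299 to between -0.266 and -0.338. Genes silent in most lines rest on few reads, and F-36P is 1 line without a spread of its own.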
